A study of Mus musculus with 8 samples.

Results

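Wild-type mouse embryonic fibroblasts that had received SRT1720 and then RSL3 were compared with untreated control fibroblasts in RNA sequencing libraries, gene by gene. The comparison took the 2 libraries of the group labelled SRT+RSL3 and the 2 libraries of the group labelled CTL, which are 4 of the 8 libraries of the study, and covered the 12618 genes tested of 17910 in the count table. The treated cells were given SRT 1720 at 0.2 µM, and RSL3 at 1 µM followed 30 min later for 2 h. The control cells have the same genotype (WT) and the same 2 h label, and no vehicle is named for them, so an effect of a vehicle cannot be told apart from that of the compounds. The other 4 libraries (SRT1720 alone and RSL3 alone) entered only the estimate of the spread between libraries, so what each compound did on its own is not described. The cells were bought from a cell bank, and the labels do not say whether the 2 libraries of a group came from separate cultures; p-values therefore measure the spread between these libraries, which may be technical.

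RSL3 binds GPX4 and blocks it. GPX4 uses glutathione to turn lipid hydroperoxides in membranes into harmless alcohols, and its loss leads to ferroptosis, a form of cell death driven by iron-dependent lipid peroxidation. SRT1720 is marketed for activating SIRT1, an NAD-dependent deacetylase whose substrates include FOXO transcription factors, p53 and PGC-1alpha. Cells meet electrophilic and oxidative stress with a small set of transcription factors. HSF1 switches on chaperones when proteins misfold, ATF4 switches on amino acid transport and synthesis when the initiation factor eIF2alpha is phosphorylated, and NRF2 switches on glutathione and heme breakdown enzymes when its repressor KEAP1 is modified.

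The 4 libraries held 20908830 and 20959586 counts in the control and 21287620 and 21261602 in the treated cells. Levels are given as CPM, each count divided by its library total, after TMM scaling, which corrects for a shift in library composition, and always in the order control 1, control 2, treated 1, treated 2. The composition shift was sizeable: without TMM the median log2 change of all genes was -0.23 in place of -0.01. Fibroblast markers were present in all 4 libraries, with 12 of 13 found in the table and all 12 tested, and their summed level was 7578, 9167, 8021 and 8029 CPM. No pluripotency marker passed the filter on low counts. The 2 control libraries differed more from each other (SD of the log2 difference 0.23 over 7061 genes of 20 CPM or more) than the 2 treated libraries did (0.15). Over 7039 of these genes with a transcript in GENCODE M21, the difference between the treated libraries followed transcript length with a Spearman rho of -0.58 across genes, that between the control libraries with 0.25, and the change between the groups with -0.14. The part of transcript length in the changes was not tested.

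The treatment was followed by changes in both directions, and the balance between rises and falls depended on the scaling. By edgeR's quasi-likelihood test at an adjusted p below 0.05, 3971 genes (31.5%) changed, of which 2191 rose (17.4%) and 1780 fell (14.1%). The rises and falls counted in the gene lists further on are to be read against 17.4% and 14.1%. Changes of 2-fold or more numbered 664 rises (5.26%) and 375 falls (2.97%). Both treated libraries lay above both control libraries for 4369 genes (34.6%) and below both for 4349 (34.5%). Scaling by library size alone gave 1290 rises and 4017 falls, so that rises made up 24.3% of the calls in place of 55.2%. The balance among changes of 2-fold or more turned as well, to 480 rises and 772 falls. The counts also depended on single libraries. They came to 2596 without control replicate 2, 2286 without treated replicate 1 and 2047 without treated replicate 2, while the total of changes of 2-fold or more stayed between 852 and 1125 whichever of the 8 libraries was left out.

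**Figure D1:**
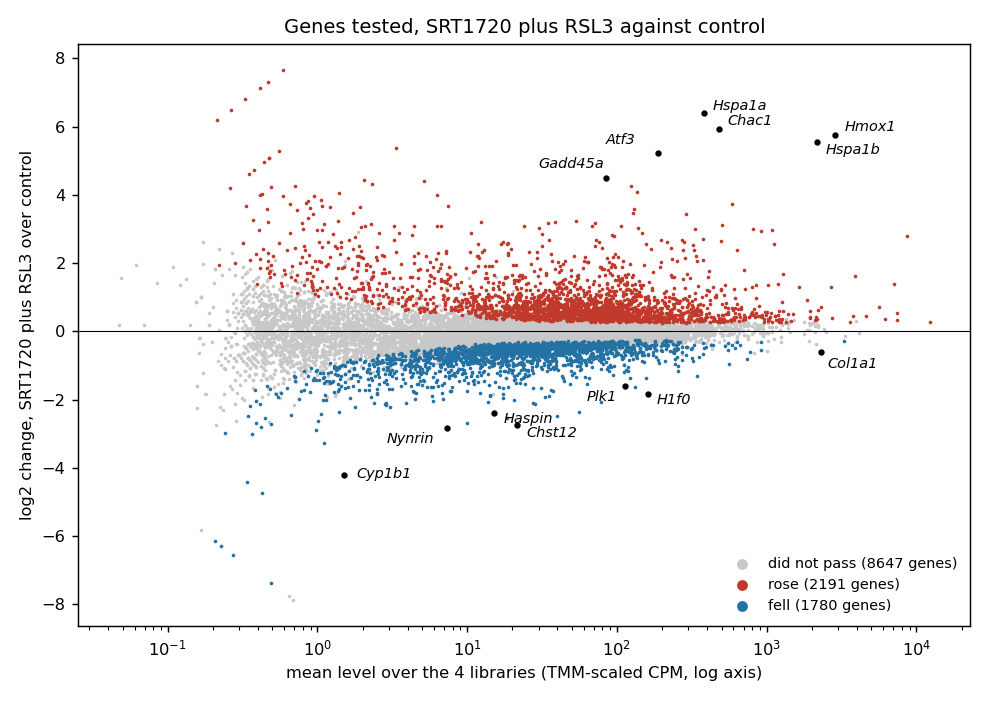
Log2 change of each of the 12618 genes tested (vertical axis) against its mean level in TMM-scaled CPM over the 4 libraries (horizontal log axis), 1 point per gene, coloured by the edgeR call. Rises reach higher than falls among abundant genes, with Hspa1a, Chac1, Hmox1 and Hspa1b at log2 changes of 5.54 to 6.40; points far from 0 at the left edge include genes at 0 in a group, whose fitted change is no measure of size.

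Promoter sequence is shown for the 3 gene lists that moved almost wholly in a single direction, because it lets the reader see what their members share beyond the direction of change. The RefSeq promoter table (GRCm38.p6; 250 bases before to 50 after each start) had an entry for 10099 of the 12618 genes tested (80%). Each motif was sought on both strands, and the stretch shown is the match nearest to the start with 15 bases on each side, cut short where the window or the start comes first. Promoters on a single chromosome were left out when the stretches to show were chosen, and the orders and counts of shown genes below leave them out too. The lists were put together from knowledge of these factors, so a motif in their members is no independent evidence.

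The ATF4 list comes first. ATF4 pairs with C/EBP proteins on a composite element with the letters TGATGNAA. Among called members of the list in order of p, 7 of the first 8 with a match before the start are shown, with the match in capitals; 6 of these 7 carry it on the other strand as the same 8 letters, TTGCATCA.
Chac1 (chr2:119351034-119351071, + strand): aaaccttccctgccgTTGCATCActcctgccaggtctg
Atf3 (chr1:191183421-191183458, - strand): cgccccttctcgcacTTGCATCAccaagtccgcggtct
Slc7a11 (chr3:50443638-50443675, - strand): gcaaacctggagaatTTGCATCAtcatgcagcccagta
Vldlr (chr19:27216805-27216842, + strand): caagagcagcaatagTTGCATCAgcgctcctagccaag
Nupr1 (chr7:126625558-126625595, - strand): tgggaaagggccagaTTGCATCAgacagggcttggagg
Tars (chr15:11399659-11399688, - strand): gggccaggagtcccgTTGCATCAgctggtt
Asns (chr6:7693210-7693247, - strand): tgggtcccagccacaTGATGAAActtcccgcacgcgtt
The element was present in 15 of 39 ATF4 targets with an entry (38.5%), in 2.67% of all genes tested, in 6.07% of genes that rose by 2-fold or more and in 2.04% of those that fell as much.

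HSF1 binds as a trimer to inverted repeats of the unit GAA, searched here as GAANNTTCNNGAA. The 2 called members of the heat shock list with a match of 3 units before the start, Hspe1 and Hspd1, encode the mitochondrial chaperonin pair. They lie head to head, so both lines come from the same stretch of chromosome 1, read on opposite strands, with the match in capitals.
Hspe1 (chr1:55088049-55088091, + strand): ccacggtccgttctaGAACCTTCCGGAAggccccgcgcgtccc
Hspd1 (chr1:55088044-55088086, - strand): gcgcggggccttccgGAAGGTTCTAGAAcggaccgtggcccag
All 3 units were found in 4 of 22 heat shock genes with an entry (18.2%) and in 0.515% of all genes tested. The share was 0.587% among genes that rose by 2-fold or more and 0% among those that fell as much.

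The cell cycle homology region, TTTGAA, is bound by the complex that represses and activates mitotic genes through the cell cycle. The first 8 mitotic genes that fell and had a match before the start are shown with the match in capitals; it lies 8 to 108 bases before the start.
Ccnf (chr17:24251410-24251438, - strand): ggagctcccggcgcgTTTGAAaacggggc
Ect2 (chr3:27153972-27154007, - strand): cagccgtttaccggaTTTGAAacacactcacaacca
Kif11 (chr19:37376348-37376381, + strand): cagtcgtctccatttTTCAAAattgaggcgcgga
Mki67 (chr7:135716457-135716492, - strand): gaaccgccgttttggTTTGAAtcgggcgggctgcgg
Cdc20 (chr4:118437344-118437376, - strand): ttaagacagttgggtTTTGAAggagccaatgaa
Top2a (chr11:99024192-99024227, - strand): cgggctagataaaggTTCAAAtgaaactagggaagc
Prc1 (chr7:80294431-80294466, + strand): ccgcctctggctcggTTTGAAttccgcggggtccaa
Cdk1 (chr10:69352913-69352942, - strand): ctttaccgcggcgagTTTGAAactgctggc
The letters were present in 21 of 30 mitotic genes with an entry (70%), in 14.3% of all genes tested, in 24.5% of genes that fell by 2-fold or more and in 14.7% of those that rose as much.

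The shares of other motifs also differed between the large rises and the large falls, in both directions. Genes that rose by 2-fold or more had 1.37 windows on average and those that fell as much 1.21, and more windows give more room for a match. The AP-1 site TGANTCA, which FOS and JUN proteins bind, was in 15.3% of genes that rose by 2-fold or more, 4.08% of those that fell and 6.3% of all genes tested. For the antioxidant response element TGACNNNGC, which NRF2 binds and which can overlap an AP-1 site, the shares were 22.9%, 14.6% and 16.9%. The FOXO site GTAAACA was in 6.26%, 3.06% and 3.01%. The CArG box, which SRF binds, went the other way, at 1.96%, 4.42% and 1.62%. A match is a run of letters and not a measured binding site.

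**Figure D2:**
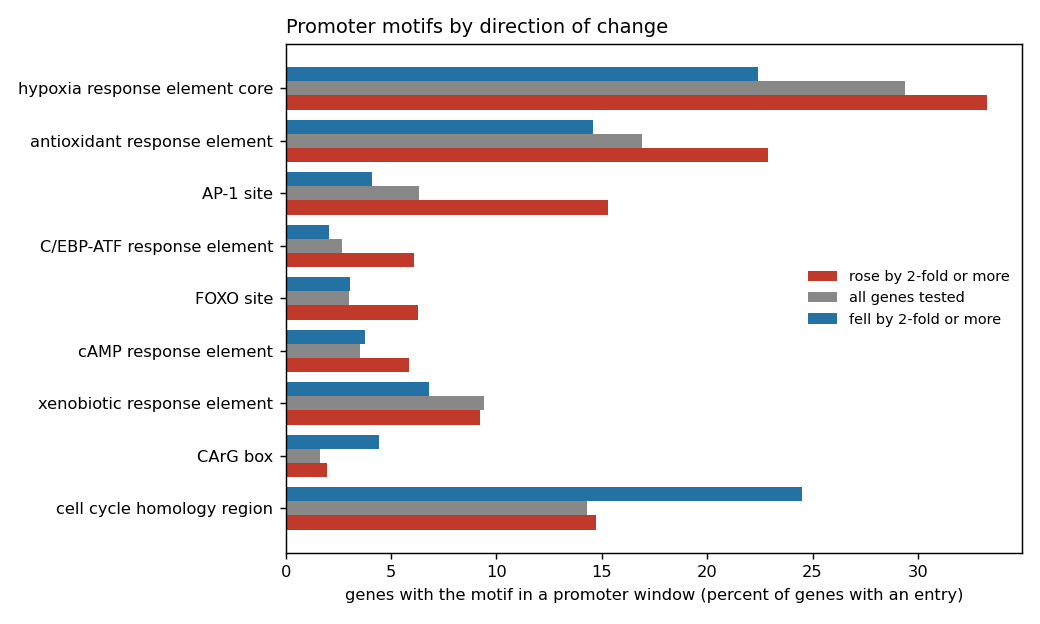
Share of genes with each motif in a promoter window (percent of genes with an entry, bars from 0) among the genes that rose by 2-fold or more, all genes tested and the genes that fell by 2-fold or more. The AP-1 bar for rises (15.3%) stands above that of all genes (6.3%), and the cell cycle homology region bar for falls (24.5%) above its own (14.3%).

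Heat shock genes rose widely and held 2 of the largest rises among genes above 0 in the control. Of 29 tested members, 25 rose and 0 fell, with a median log2 change of 1.11 against -0.01 over all genes tested. Hspa1a, an inducible cytosolic chaperone, was at 11.4, 6.37, 742 and 759 CPM, a log2 change of 6.40 ± 0.23 (SE; edgeR adjusted p = 1.55e-07). Hspa1b was at 99.6, 82.3, 4357 and 4111 CPM (5.54 ± 0.26). The treated values lay far above the control values for both genes, and since the 2 genes are nearly identical in sequence, how their reads were divided between them is uncertain. Dnajb1, the co-chaperone that hands clients to these proteins, stood at 90.8, 74.3, 1084 and 1101 CPM (3.73 ± 0.25, edgeR adjusted p = 7.67e-06). Dnajb4, of the same family, stood at 16.7, 18.2, 71.0 and 59.8 CPM (1.91 ± 0.13). The constitutive chaperone Hspa8 was already abundant at 3774 and 4021 CPM and reached 10010 and 10598 CPM (1.40 ± 0.10), which put it among the 5 most abundant genes of the treated cells. Summed over the list, heat shock genes went from 14460 and 14890 CPM to 37050 and 37270 CPM.

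Ubiquitin genes rose with the chaperones. Ubb, which encodes a chain of ubiquitin units, was at 1933, 1887, 5850 and 5968 CPM (log2 change 1.63 ± 0.10, edgeR adjusted p = 5.42e-06). Its repeats are shared with other ubiquitin genes, so its reads may have been assigned with some error. Of 36 tested ubiquitin and proteasome genes 17 rose and 0 fell, with a median of 0.26. Psmd8, of the regulatory particle of the proteasome, stood at 205, 234, 366 and 390 CPM (0.78). Nfe2l1, the factor that drives proteasome genes, went from 163 and 168 to 272 and 258 CPM (0.68). The count of rises fell to 9 with library size only.

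ATF4 targets rose almost without exception. Of 46 tested, 43 rose and 0 fell, with a median log2 change of 1.204, and 29 rose by 2-fold or more. Chac1, which degrades glutathione and carries the element shown above, was at 14.8, 15.7, 892 and 989 CPM, a log2 change of 5.94 ± 0.13 (edgeR adjusted p = 1.07e-08). Atf3, a stress-induced transcription factor, was at 9.44, 9.91, 359 and 372 CPM (5.24 ± 0.12, edgeR adjusted p = 1.07e-08). The fitted folds were 61.5 and 37.8, with no overlap between the groups. Ddit4, an inhibitor of mTORC1, was at 22.1, 17.8, 245 and 232 CPM (3.58 ± 0.12), and Ppp1r15a, which guides the phosphatase that reverses eIF2alpha phosphorylation, was at 43.1, 54.5, 516 and 541 CPM (3.44 ± 0.12). Trib3, a pseudokinase, was at 11.5, 13.4, 231 and 241 CPM (4.24 ± 0.20). Slc7a11 and Slc3a2 together form the cystine importer that feeds glutathione synthesis. Slc7a11 was at 5.71, 7.61, 59.8 and 48.1 CPM (3.02 ± 0.16, edgeR adjusted p = 1.76e-06) and Slc3a2 at 295, 335, 1061 and 1123 CPM (1.79 ± 0.10). The genes shown above with weaker changes included the threonyl-tRNA synthetase Tars (0.93) and asparagine synthetase Asns (0.99). Both treated values lay above both control values for 45 of the 46 members and below them for 1. Over all genes tested the shares were 34.6% above and 34.5% below. The member below was the arginine transporter Slc7a3 (-1.12), which did not pass (edgeR adjusted p = 0.0561).

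The ER unfolded protein response list moved in part. Of 25 tested, 12 rose (48%, against 17.4% of all genes tested) and 1 fell (4%, against 14.1%). The fall was Sel1l (-0.53), and the median was 0.32. The ER-membrane protein Herpud1 was at 56.3, 63.1, 373 and 366 CPM (log2 change 2.63 ± 0.12, edgeR adjusted p = 7.03e-07). The ER co-chaperone Dnajb9 was at 7.85, 7.69, 62.3 and 49.0 CPM (2.84 ± 0.17), and Hspa5, the main ER chaperone BiP, at 588, 716, 1764 and 1679 CPM (1.40 ± 0.17). The disulfide isomerases did not pass, with Pdia3 at 0.10, Pdia4 at 0.07 and Pdia6 at 0.05. The call of Sel1l was lost without control replicate 2 and without either treated library (edgeR adjusted p = 0.128, 0.0687 and 0.144).

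NRF2 targets rose in a more selective way. Of 34 tested, 18 rose and 1 fell (Idh1, -0.56), with a median of 0.46. The rises counted here include Trib3, which is described above with the ATF4 targets. Hmox1, which opens the heme ring and releases iron, was at 68.9, 139, 5580 and 5680 CPM, a log2 change of 5.76 ± 0.29 (edgeR adjusted p = 1.14e-06). The control libraries lay far apart in Hmox1, and both treated libraries lay far above either of them. Srxn1, which restores oxidised peroxiredoxins, was at 83.9, 92.9, 462 and 470 CPM (2.40 ± 0.10). The autophagy receptor Sqstm1 was at 307, 345, 1937 and 1910 CPM (2.56 ± 0.09), and the small MAF protein Maff at 56.6, 50.01, 279 and 294 CPM (2.43 ± 0.11). Gclm, the modifier subunit of glutathione synthesis, was at 78.1, 99.1, 193 and 184 CPM (1.09 ± 0.12). Several classic targets did not pass, among them Nqo1 (0.07), Gsr (0.03) and Prdx1 (-0.21). The number of rises was lowest, at 13, without treated replicate 2. The call of Idh1 was lost without control replicate 2 and without either treated library (edgeR adjusted p = 0.153, 0.0529 and 0.152).

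The genes known to restrain or to promote ferroptosis did not move as a block. Of 28 tested suppressors, 12 rose (42.9%) and 2 fell (7.14%), with a median of 0.28. Of 23 tested drivers, 7 rose (30.4%) and 4 fell (17.4%), with a median of 0.15. With library size only the medians became 0.05 for suppressors and -0.09 for drivers, and the falls numbered 5 and 7. Gpx4, the target of RSL3, was at 327, 285, 353 and 386 CPM. Both treated values lay above both control values, as they did for 34.6% of all genes tested. The log2 change of 0.27 ± 0.12 did not pass (edgeR adjusted p = 0.112) and ranged from 0.0445 to 0.375 over the alternatives. Acsl4, which loads polyunsaturated fatty acids into membrane lipids, was at 40.9, 45.5, 51.2 and 44.7 CPM, with overlapping groups (0.15 ± 0.12, edgeR adjusted p = 0.391; -0.08 with library size only). Ptgs2, the cyclooxygenase widely read as a ferroptosis marker, was at 185, 176, 1562 and 1320 CPM (2.999 ± 0.14, edgeR adjusted p = 8.27e-07). The called drivers with the largest rises, Chac1, Hmox1 and Atf3, are also members of the stress lists above, so the lists are not independent. The drivers that fell were the lipoxygenase Alox15 (-0.81), the oxidase Nox4 (-0.98) and the ether lipid enzymes Agps (-0.52) and Far1 (-0.64). None of these 4 falls held without control replicate 2 (edgeR adjusted p = 0.167, 0.118, 0.138 and 0.167) or without treated replicate 2 (0.189, 0.154, 0.182 and 0.22).

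Of 22 tested iron-handling genes 6 rose and 2 fell, with a median of 0.26, and 3 rose without treated replicate 2. Against 17.4% and 14.1% of all genes tested, 27.3% of the list rose and 9.09% fell. Scaling by library size alone gave 4 rises and 6 falls. The ferritin subunits Fth1 (1017, 773, 1617 and 1646 CPM; 0.87 ± 0.16, edgeR adjusted p = 0.00275) and Ftl1 (1975, 1517, 2629 and 3056 CPM; 0.70 ± 0.16) rose, while the transferrin receptor Tfrc (-0.30, edgeR adjusted p = 0.14) did not pass. Ireb2, one of the proteins that holds ferritin mRNA back, was at 50.1, 60.01, 26.98 and 23.5 CPM (-1.13 ± 0.21). The call of Ftl1 was lost without treated replicate 2 (edgeR adjusted p = 0.0763).

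The tested metallothioneins rose. Mt1 was at 139, 133, 751 and 952 CPM (log2 change 2.65 ± 0.20, edgeR adjusted p = 1.61e-05) and Mt2 at 87.5, 70.2, 421 and 549 CPM (2.62 ± 0.27); both encode metallothioneins, which bind zinc and copper. The zinc exporter Slc30a1 rose (1.66 ± 0.20), as did Mtf1, the zinc-sensing factor that drives metallothioneins (0.85). The zinc importer Slc39a10 went the other way, at 22.3, 22.4, 5.29 and 5.31 CPM (-2.08 ± 0.20). Of the 6 tested members 4 rose and 1 fell.

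**Figure D3:**
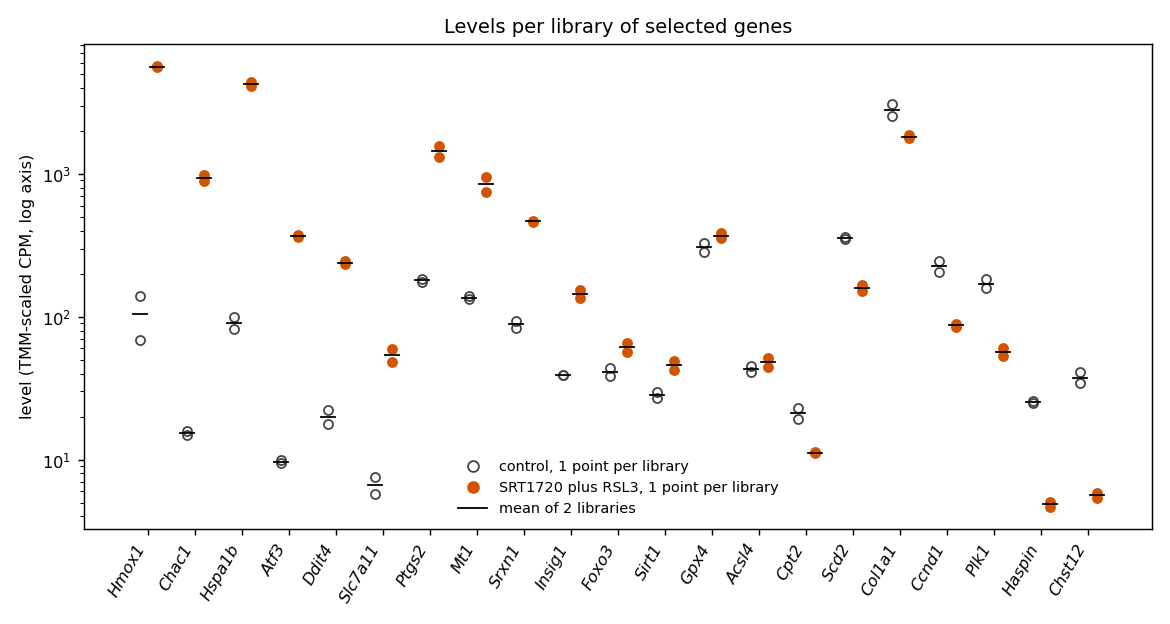
Level of selected genes in each library (TMM-scaled CPM, log axis); open circles are the 2 control libraries, filled circles the 2 libraries with SRT1720 plus RSL3, and bars the mean of 2. Hmox1 and Hspa1b lie at 4111 CPM or more in both treated libraries, Gpx4 and Acsl4 lie close together in all 4, and Haspin and Chst12 are lower in both treated libraries.

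Immediate early genes, which respond within minutes to hours of many signals, rose widely. Of 44 tested, 35 rose and 2 fell (Srf and Id2), with a median of 1.62. Gadd45a, a growth arrest gene, was at 7.68, 6.68, 168 and 157 CPM (log2 change 4.50 ± 0.13, edgeR adjusted p = 6.85e-08). Csrnp1 was at 25.4, 19.9, 197 and 187 CPM (3.08 ± 0.14), and Klf4 at 20.6, 22.02, 136 and 126 CPM (2.62 ± 0.10). The calls of Srf and Id2 did not hold without several single libraries, among them control replicate 1 (edgeR adjusted p = 0.197 and 0.0699).

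Feedback inhibitors of growth factor signalling followed the same direction. Of 21 tested, 16 rose and 0 fell, with a median of 1.27. Dusp4, a phosphatase of MAP kinases, was at 15.5, 14.5, 266 and 245 CPM (4.09 ± 0.15, edgeR adjusted p = 1.69e-07), and Dusp1, of the same family, at 87.2, 102, 552 and 543 CPM (2.54 ± 0.11). Rgs16, which ends G protein signalling, was at 105, 104, 895 and 916 CPM (3.12 ± 0.10), and Phlda1 at 251, 239, 1957 and 1866 CPM (2.96 ± 0.11). The EGF receptor ligand Areg, among the 12 largest rises, was nearly absent from control cells, at 0.644, 0.840, 11.1 and 12.6 CPM (3.99 ± 0.22, edgeR adjusted p = 2.17e-06).

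Targets of p53 and of FOXO factors both rose in part, with several genes on both lists. Of 26 tested p53 targets, 11 rose (42.3%) and 5 fell (19.2%), with a median of 0.32. Of 32 tested genes of the FOXO list, 16 rose (50%) and 3 fell (9.38%), with a median of 0.50. Of all genes tested, 17.4% rose and 14.1% fell. Cdkn1a, the inhibitor of cyclin-dependent kinases, was at 76.9, 64.8, 369 and 402 CPM (2.44 ± 0.13, edgeR adjusted p = 1.61e-06). Plk3 (2.87), the sestrin Sesn2 (2.83) and Btg2 (2.498) rose, while Gtse1 (-1.18) and Sesn1 (-0.87) fell. Bcl2l11, which encodes the BH3-only protein BIM, was at 8.88, 8.67, 25.03 and 22.6 CPM (1.44 ± 0.12), and Pmaip1 (1.93) and Bbc3 (1.65), of the same kind, rose with it. The survival gene Bcl2 fell (-1.30), whereas the survival gene Bcl2l1 rose (0.52) and Bak1, which promotes death, fell (-0.44). The call of Bcl2l1 was lost in 3 alternatives. The BCL2 family as a whole had 5 rises (33.3%) and 2 falls (13.3%) among 15 tested (median 0.41). With library size only it had 3 rises, 4 falls and a median of 0.18.

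Sirt1 and Foxo3 were both slightly higher in the treated cells. Sirt1, the target SRT1720 is marketed for, was at 27.1, 29.6, 49.2 and 42.3 CPM (log2 change 0.69 ± 0.13, edgeR adjusted p = 0.00323). Foxo3, which SIRT1 deacetylates, was at 43.6, 38.8, 65.1 and 56.8 CPM (0.56 ± 0.12, edgeR adjusted p = 0.00723); its call was lost with library size only and without control replicate 2 or treated replicate 1 (edgeR adjusted p = 0.0585, 0.0564 and 0.0732). Of 20 tested sirtuin and NAD genes, 4 rose (20%, against 17.4% of all genes tested) and 1 fell (5%, against 14.1%). The fall was Tiparp (-0.66), and the rises included Nnmt (0.95) and Nampt (0.61). The call of Nampt was lost without treated replicate 1. The other sirtuins did not pass, with Sirt3 at 0.46 and Sirt7 at -0.27. The median of 0.09 became -0.14 with library size only.

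Hypoxia targets and glycolysis genes held more rises than falls. Of 25 tested hypoxia targets, 13 rose and 1 fell (Egln1, -0.46; median 0.44), and of 19 glycolysis genes 6 rose and 1 fell (Aldoc, -1.74; median 0.14). The share that rose was 52% and 31.6%, against 17.4% of all genes tested. Vegfa, which drives vessel growth, was at 103, 96.4, 666 and 645 CPM (2.71 ± 0.12, edgeR adjusted p = 5.04e-07). Ndrg1 was at 48.5, 41.0, 262 and 269 CPM (2.57 ± 0.12), and the glucose-trapping hexokinase Hk2 at 38.1, 38.7, 89.0 and 76.7 CPM (1.11 ± 0.15). Hif1a did not pass (0.09). The falls of Egln1 and Aldoc were lost without treated replicate 1 (edgeR adjusted p = 0.0669 and 0.0563). Scaled by library size alone, the glycolysis list had 2 rises, 4 falls and a median of -0.09.

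Fatty acid oxidation genes held more falls than rises, and few synthesis genes changed. Of 33 tested oxidation genes, 2 rose (6.06%) and 8 fell (24.2%), with a median of -0.16 (-0.39 with library size only, which called 17 falls). Cpt2, which delivers acyl groups inside mitochondria, was at 23.05, 19.1, 11.3 and 11.1 CPM (-0.91 ± 0.14, edgeR adjusted p = 0.00113), and the acyl-CoA dehydrogenase Acadm at 18.2, 20.5, 11.97 and 10.3 CPM (-0.79 ± 0.14). Cpt1a, the gatekeeper of the same path, was at 36.2, 28.8, 25.2 and 24.96 CPM. Both treated values lay below both control values, as they did for 34.5% of all genes tested. The change of Cpt1a did not pass (-0.38 ± 0.14, edgeR adjusted p = 0.0637) and ranged from -0.61 to -0.20 over the alternatives. Of 23 synthesis and desaturation genes, 3 rose and 3 fell, 13.04% each, below the 17.4% and 14.1% of all genes tested (median 0.17, -0.06 with library size only). Scd2 was at 360, 347, 167 and 150 CPM (-1.15 ± 0.09, edgeR adjusted p = 2.2e-05) and Elovl6 at 58.9, 76.8, 30.0 and 30.2 CPM (-1.17 ± 0.16); they desaturate and lengthen fatty acids. Scd1, a desaturase of the same family, did not pass (-0.30 ± 0.13, edgeR adjusted p = 0.0967).

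The choline kinase Chka led the genes of fatty acid activation and phospholipid remodelling. It was at 43.5, 41.4, 179 and 174 CPM (2.06 ± 0.09, edgeR adjusted p = 6.4e-07), in a list of 37 with 13 rises and 2 falls (median 0.10, -0.13 with library size only). Gpam, which starts glycerolipid synthesis, was at 19.6, 22.4, 7.43 and 6.72 CPM (-1.57 ± 0.20). Of 28 cholesterol genes 10 rose and 3 fell (median 0.11, -0.12 with library size only). Insig1, which restrains the pathway, was at 39.1, 38.9, 154 and 135 CPM (1.89 ± 0.11) and Msmo1, a sterol demethylating oxidase, at 83.7, 77.0, 184 and 191 CPM (1.22 ± 0.12).

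The cell cycle lists moved in opposite directions. Of 36 tested mitotic genes 0 rose and 31 fell, with a median of -0.74, while of 35 G1 and S phase genes 17 rose and 5 fell, with a median of 0.23. In a bulk library fewer cells in mitosis and less RNA per cell cannot be told apart. The mitotic kinase Plk1 was at 184, 158, 52.7 and 60.9 CPM (-1.59 ± 0.13, edgeR adjusted p = 3.02e-05), Haspin, a chromosome-bound mitotic kinase, at 25.8, 24.98, 5.09 and 4.65 CPM (-2.38 ± 0.17), and the helicase Pif1 at 32.8, 30.6, 4.54 and 6.37 CPM (-2.54 ± 0.18). Cdt1, which licenses replication origins, was at 166, 144, 455 and 458 CPM (1.55 ± 0.13, edgeR adjusted p = 2.62e-05), and its partner Cdc6 at 80.2, 67.6, 139 and 136 CPM (0.89 ± 0.11). The polymerase clamp Pcna was at 229, 258, 375 and 388 CPM (0.64 ± 0.09). Ccnd1, the cyclin that starts the cycle, was among the 5 falls of its list, at 245, 205, 89.3 and 84.5 CPM (-1.37 ± 0.11). The cyclin genes Ccnd3 (-0.68), Ccna2 (-0.63) and Ccne1 (-0.39) fell as well, and the call of Ccne1 was lost in 4 alternatives. The rises among G1 and S phase genes numbered 10 with library size only and 9 without treated replicate 2, and the median was -0.0015 with library size only.

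Matrix genes changed about as often as all genes did. Of 38 tested, 7 rose (18.4%, against 17.4% of all genes tested) and 5 fell (13.2%, against 14.1%), with a median of -0.22, and the falls ranged from 2 without treated replicate 2 to 18 with library size only. Col1a1 was at 2520, 3056, 1780 and 1867 CPM (-0.61 ± 0.12, edgeR adjusted p = 0.00412) and the crosslinking enzyme Loxl1 at 154, 160, 100 and 101 CPM (-0.64 ± 0.12). The collagenase gene Mmp13 was barely present in the control, at 2.10 and 0.531 CPM, and stood at 10.9 and 11.8 CPM in the treated cells (3.09 ± 0.44). Of 12 fibroblast markers 2 rose, Pdgfra (0.73) and Vim (0.39), and 4 fell, which were Pdgfrb (-0.38), Col1a1, Col1a2 (-0.95) and Col3a1 (-0.59). The call of Vim was lost with library size only and without treated replicate 2 (edgeR adjusted p = 0.128 and 0.0573), that of Col1a2 without control replicate 2 or either treated library (0.0828, 0.0796 and 0.0799), that of Col3a1 without control replicate 1 or either treated library (0.16, 0.157 and 0.122), and that of Pdgfrb in 5 leave-one-out fits (up to 0.256, without control replicate 2).

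The TGF-beta and YAP lists held genes in both directions. Of 25 TGF-beta and BMP genes 11 rose (44%, against 17.4% of all genes tested) and 6 fell (24%, against 14.1%). The median was 0.18, and -0.05 with library size only. Tgif1, a repressor in this pathway, rose from 39.1 and 34.3 to 164 and 168 CPM (2.18 ± 0.12), whereas the activin subunit Inhbb fell from 18.2 and 16.1 to 2.64 and 2.73 CPM (-2.68 ± 0.18, edgeR adjusted p = 6.93e-06). Inhba, the other activin subunit, rose (1.84). Of 22 YAP and TEAD targets 6 rose (27.3%) and 5 fell (22.7%), with a median of -0.04. Ccn1 was at 915, 989, 2364 and 2326 CPM (1.30 ± 0.10), and Ajuba, a LIM protein, at 205, 194, 65.2 and 63.0 CPM (-1.64 ± 0.12). Among 23 actin and SRF genes 3 rose and 3 fell, 13.04% each, below the 17.4% and 14.1% of all genes tested (median -0.07). With library size only 3 rose and 11 fell (median -0.30).

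Inflammatory genes split, and interferon-stimulated genes rested on a control library. The NF-kB list had 12 rises and 7 falls among 33 tested (median 0.11, -0.13 with library size only). Il11 went from 2.49 and 1.81 to 11.3 and 9.80 CPM (2.29 ± 0.23), whereas the adhesion gene Vcam1 went from 78.8 and 67.2 to 31.8 and 30.4 CPM (-1.23 ± 0.14). The transcription factor Irf1 was at 56.6, 38.3, 14.5 and 15.3 CPM (-1.67 ± 0.18). Of 23 interferon-stimulated genes 0 rose and 7 fell (median -0.52), and control replicate 2 lay lower than control replicate 1 by a median of 0.77 on the log2 scale in this list. Without control replicate 1, 3 genes rose, 3 fell and the median was 0.11. Ifit1 was at 9.23, 4.997, 1.795 and 1.82 CPM (-1.97 ± 0.34), and kept its call under every alternative.

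Autophagy and clock genes rose more often than they fell. The shares that rose were 56.7% and 50%, against 17.4% of all genes tested, and those that fell 3.33% and 5.56%, against 14.1%. Of 30 tested autophagy and lysosome regulators 17 rose and 1 fell (Ulk2, -0.58; median 0.50), led after Sqstm1 by Atg14 (1.82) and Gabarapl1 (1.45), which act in the making of autophagosomes. Of 18 clock genes 9 rose and 1 fell (Per3, -0.85; median 0.65), with Ciart, a repressor of the clock, at 6.22, 8.89, 66.1 and 73.8 CPM (3.21 ± 0.16, edgeR adjusted p = 1.02e-06) and Arntl (1.51), its main activator, also higher. The call of Ulk2 was lost without treated replicate 2 (edgeR adjusted p = 0.0721), and that of Per3 without control replicate 2 or either treated library (0.188, 0.0847 and 0.148).

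Targets of the aryl hydrocarbon receptor included the deepest fall of any list member. Cyp1b1 was at 3.48, 2.26, 0.199 and 0.101 CPM, from 81, 51, 4 and 2 counts (-4.20 ± 0.53, edgeR adjusted p = 0.000347), and Cyp1a1 at 2.58, 1.42, 0.199 and 0.202 CPM (-3.28 ± 0.61); both enzymes oxidise planar aromatic compounds. Of 6 tested members 3 fell and 1 rose, and the riser was the receptor gene Ahr itself (1.11). Such low counts make the size of these changes imprecise. Cyp1b1 and Cyp1a1 reached 10 counts in this comparison through the control libraries alone, so their falls are partly fixed by the filter.

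Several genes on no list fell by more than 4-fold. Chst12, which sulfates chondroitin chains, was at 40.7, 34.2, 5.88 and 5.36 CPM (-2.74 ± 0.18, edgeR adjusted p = 5.77e-06). Nynrin was at 12.5, 13.04, 1.795 and 1.82 CPM (-2.82 ± 0.18) and the cell adhesion gene Pcdh18 at 63.5, 71.1, 12.3 and 11.9 CPM (-2.47 ± 0.22). Bahcc1 was at 85.8, 101, 20.3 and 16.3 CPM (-2.36 ± 0.17), the spindle gene Aspm at 44.2, 48.7, 11.6 and 9.40 CPM (-2.14 ± 0.14) and Wdr6 at 122, 130, 28.8 and 30.8 CPM (-2.08 ± 0.21). The groups were well separated for each of them.

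Some genes that were nearly absent from control cells were also among the 12 largest rises. Lce1g, a gene of the skin's cornified envelope, had 13 and 8 counts in the control and 185 and 205 in the treated libraries (4.40 ± 0.42, edgeR adjusted p = 6.64e-05). In this comparison only the treated group reached 10 counts of Lce1g in both libraries, so its rise is partly fixed by the filter. Adm2, a peptide hormone gene, had 19 and 30 against 283 and 268 counts (3.69 ± 0.36).

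**Figure D4:**
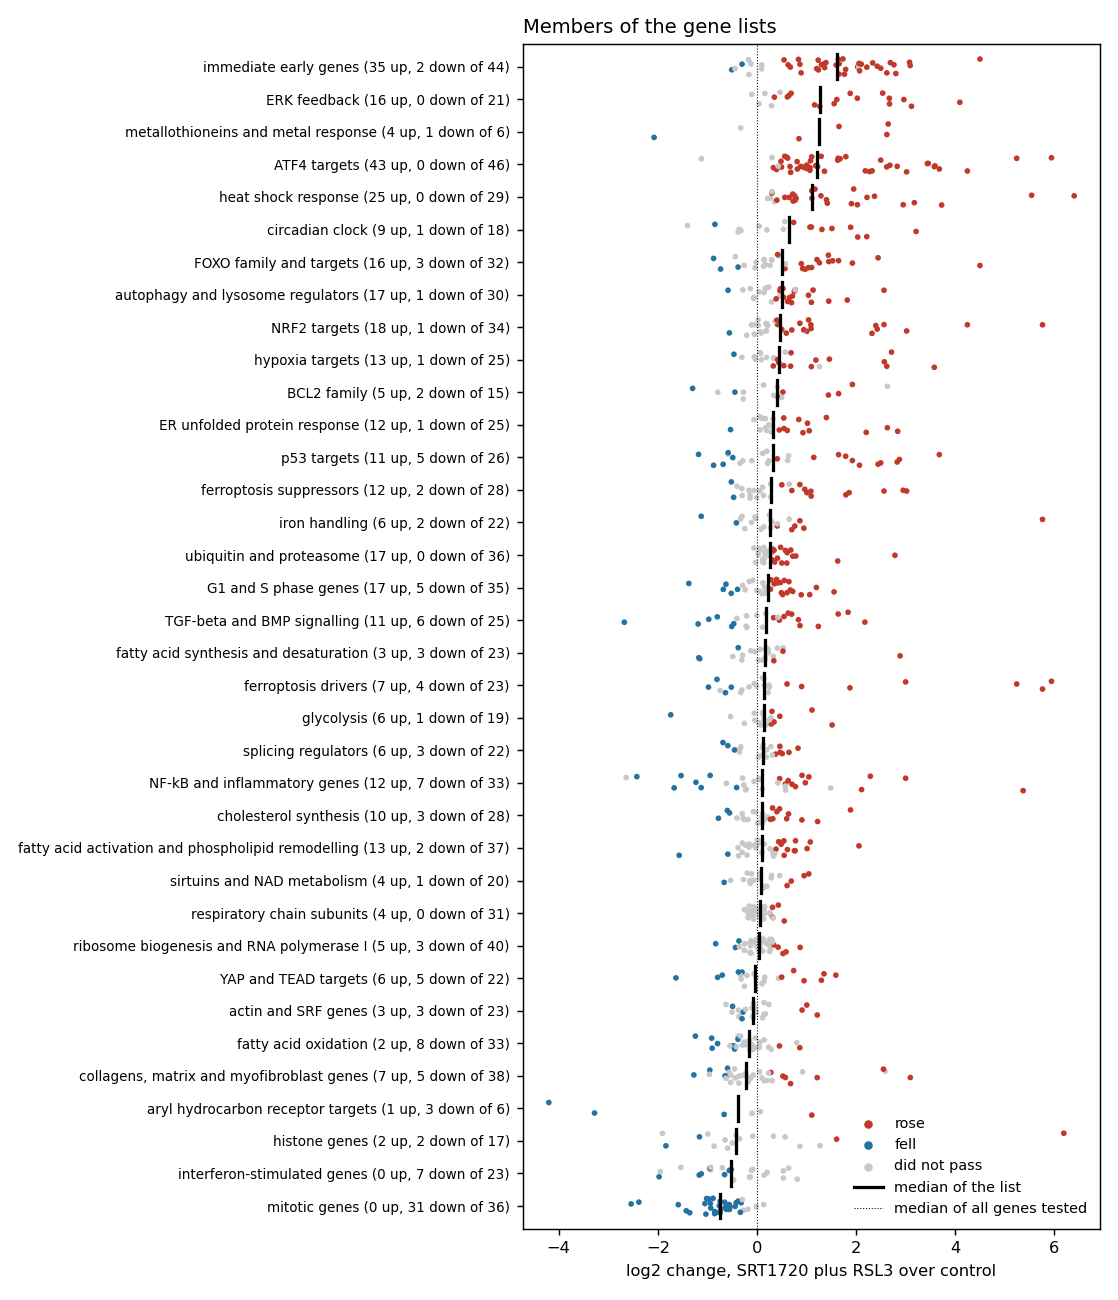
Log2 change of each tested member of the pathway and function lists, without the cell type markers and reference genes (points, coloured by the edgeR call), with the median of each list as a black bar and the median of all genes tested as a dotted line; lists are ordered by their median. The immediate early, ERK feedback, metallothionein, ATF4 and heat shock lists lie at the top of those drawn with medians of 1.11 to 1.62, and the mitotic list lies at the bottom with a median of -0.74.

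Lists tied to basic cell functions had medians near that of all genes, apart from the histone list. Of 40 ribosome biogenesis genes 5 rose and 3 fell (median 0.04, -0.19 with library size only), of 31 respiratory chain subunits 4 rose and 0 fell (0.06, and with library size only 0 rose and 9 fell) and of 22 splicing regulators 6 rose and 3 fell (0.13), with the kinase Clk1 higher (0.83). Of 17 commonly used reference genes 7 rose (41.2%, against 17.4% of all genes tested) and 2 fell (11.8%, against 14.1%), with a median of 0.13. With library size only 1 rose and 6 fell, with a median of -0.10. Gapdh was at 6701, 6288, 7851 and 8644 CPM (0.34 ± 0.10, edgeR adjusted p = 0.0229) and Actb at 3773, 3432, 2870 and 3055 CPM (-0.28 ± 0.09, edgeR adjusted p = 0.0364). The rise of Gapdh was lost with library size only and without control replicate 2 or treated replicate 2 (edgeR adjusted p = 0.355, 0.0992 and 0.16), and the fall of Actb in 6 alternatives (up to 0.187, without treated replicate 1). Hprt (-0.03), Tbp (0.10) and Ywhaz (-0.09) did not pass. Histone genes are mostly without a poly(A) tail and only 17 of 50 in the table were tested, with 2 rises and 2 falls (11.8% each). Their median was -0.42, which became -0.65 with library size only and -0.06 without the low-count filter. The linker histone H1f0 was at 206, 297, 69.2 and 71.7 CPM (-1.84 ± 0.24).

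Markers of other cell types rose for some types and did not pass for others. Endothelial markers summed to 2.15, 1.37, 10.2 and 9.65 CPM, with Kdr, Cdh5 and Vwf rising and Pecam1 and Tek below the filter. Vwf, at 6, 2, 15 and 18 counts, and the epithelial Grhl2, at 6, 4, 34 and 45, reached 10 counts in this comparison through the treated libraries alone, so their rises are partly fixed by the filter. The rise of Vwf was lost without control replicate 2 or either treated library (edgeR adjusted p = 0.103, 0.0577 and 0.0989). The 3 tested macrophage markers rose, summing to 18.5, 15.4, 32.1 and 34.7 CPM, with Ptprc and Itgam below the filter. Of 2 tested epithelial markers Grhl2 rose, and of 3 neural, 2 muscle and 2 adipocyte markers 0 passed. The cartilage factor Sox9 was at 32.8, 27.3, 246 and 246 CPM (3.03 ± 0.15, edgeR adjusted p = 9.12e-07), while Col2a1 did not pass (-0.93). The part of these markers in the other results was not tested.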

How the data were processed

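RNA was sequenced from stranded poly(A) libraries, per the labels' protocols. The authors deposited 1 table of estimated counts per gene (expected counts, not scaled; 76.6 to 77.6% of values are whole numbers). For the aligner, counter, genome build, filters and use of strand, nothing is given in the sources used here, so genes that overlap or have near-identical copies are uncertain. Column names gave the groups and replicates, and 0 columns of other samples were set aside. Of 17910 genes, 705 were at 0 in all 8 libraries. Totals were 20579122 to 21287620 counts per library.

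Estimated counts were rounded to whole numbers. Genes were filtered with filterByExpr (minimum count 10), which left 12618, scaled with TMM and fitted with edgeR 4.0.16 (quasi-likelihood, R 4.3.3) as 4 group means over 8 libraries, with 4 residual degrees of freedom. The contrast SRT+RSL3 minus CTL was tested on both sides, with Benjamini-Hochberg adjustment over all genes tested and a threshold of 0.05. The common dispersion of 0.0112 is a coefficient of variation of 10.6%. On simulated data the test was checked before use. Alternatives were RLE and library-size scaling, no filter, DESeq2 1.42.0, limma 3.58.1 (voom), the 4 libraries alone, a replicate block, each library left out and a threshold of 0.01.

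The members and lists were chosen with earlier results of these data known. Named genes were the 12 largest rises and falls of 5 CPM or more without overlap, up to 4 members of each list per direction by p, the reference genes and a fixed set of ferroptosis and SIRT1 genes. Genes given as not passing that fall outside this rule, and those shown by promoter, were chosen after their values were seen. Promoter sequences are from RefSeq (GRCm38.p6), and transcript lengths are the longest per gene in GENCODE M21. A few genes and 1 promoter are not reported here.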

Additional observations from a re-analysis of the deposited data

How the results depend on the processing

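The count of 3971 calls ranged from 2047 to 4940 when each library was left out in turn (an arm left with 1 library was assumed to vary like the others), that of rises from 1340 to 2609 and that of falls from 707 to 2347. The low counts came without control replicate 2 (2596), treated replicate 1 (2286) or treated replicate 2 (2047). At a threshold of 0.01 there were 2155 calls, 1350 rises and 805 falls, as a stricter threshold must give fewer. Scaling by library size alone gave 1290 rises and 4017 falls. The 1039 changes of 2-fold or more stayed within 1.5 times that total under every alternative run, but scaling by library size turned their balance from 664 rises and 375 falls to 480 and 772. Of 227 called genes among the 247 named, 157 kept their call under every alternative at the same threshold and none turned direction. Scaling by library size alone moved the median log2 change of all genes tested from -0.01 to -0.23. Genes with a small positive change that did not pass took the other sign with that shift: Ppia -0.0309, Pgk1 -0.10, Acsl4 -0.0759, Tbp -0.13, Prpf19 -0.16, Mdh2 -0.18, Actr1b -0.22 and Rcc2 -0.22. With a library left out, Hprt ranged from -0.0966 to 0.0345, Tmed2 from -0.0495 to 0.00982, Actr1b from -0.0124 to 0.0312 and Rcc2 from -0.00385 to 0.0161. The cause of these leave-one-out ranges was not tested.

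The replicate numbers share only a number: the pair differences of control and treated libraries correlated with r = -0.29 across 7061 genes, which are not independent replicates. With a replicate block 4024 genes were called, and with the crossed pairing, chosen after seeing the data, 4908.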

Other observations

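Some genes had no counts in a group and so have no fold. Evi2 had 0 counts in both control libraries and 24 and 23 in the treated libraries, Serpinb9e 17 and 20, and Hmx3 16 and 17. Tril had 10 and 15 counts in the control libraries and 0 in both treated libraries. Entpd4 had 58 counts in control replicate 2 and 0 in the other 3 libraries.

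Transcript length moved with the share of falls. Among 7039 genes of 20 CPM or more split into 5 length classes of nearly equal size, the share that fell was 5.89%, 10.95%, 14.1%, 16.6% and 18.7% from the shortest to the longest class, and the median log2 change went from 0.12 to -0.04. The difference between the treated libraries also followed length (rho -0.58 across genes), and the part of length in any gene's change was not tested.

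Of 2207 genes at 100 CPM or more, 176 had a 95% interval of the change within 1.2-fold either way, which puts a bound on how far they can have moved in these libraries.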
